A study of Homo sapiens with 4 samples.

Results

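The ATP-binding cassette (ABC) transporter family was followed across 4 RNA-seq libraries of bone cancer cells. Its members were taken by name, as every gene whose symbol was ABC, a subfamily letter from A to G and a number, which gave 46 of the 61806 genes measured. They fell into subfamilies A (12 genes), B (9 genes), C (12 genes), D (4 genes), E (1 gene), F (3 genes) and G (5 genes). In GENCODE 29, 45 of the 46 are protein-coding and ABCC13 is a transcribed unprocessed pseudogene. The cells were JJ012, a line from a human chondrosarcoma, and 143B, a line from a human osteosarcoma. Each line was kept detached, in suspension, and was sequenced as an untreated control and after 1 mM melatonin, the pineal hormone, for 72 h. There was 1 library per condition, so variation between cultures could not be measured, and within a line every difference below is between single libraries and carries no test.

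ABC proteins share a kind of ATP-binding domain, and most of them use ATP to move lipids, sterols, peptides, metals, drugs or conjugated metabolites across a membrane. Subfamily A and parts of G handle lipids and sterols, subfamilies B and C hold the multidrug efflux pumps P-glycoprotein (ABCB1) and the multidrug resistance proteins (ABCC1 and its relatives), and subfamily D serves peroxisomes and lysosomes. ABCE1 and the ABCF proteins have no membrane domains and act on ribosomes. Efflux pumps of the family are known in bone sarcomas for carrying doxorubicin and methotrexate out of cells.

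The promoters of 4 members are shown because these members differed between a melatonin library and its control and have a single start in the RefSeq promoter table (build GRCh38.p14). Of the others with such a difference, ABCA2 and ABCC6 have several starts there, and ABCC3 is missing from the table. Motifs were searched in the 250 bases before the RefSeq start, of which 18 to 36 lie inside the gene as the files place it and are not printed. Each line gives the remaining bases, 5′ to 3′ on the strand of the gene, and holds every match. Capitals mark matches, on either strand, to the GC box GGGCGG, the CCAAT box CCAAT, the E-box CACGTG, the TATA box TATAAA or the cAMP response element TGACGTCA. The last motif was added after the sequences had been seen. ABCE1 (chr4:145098061-145098287, plus strand) and ABCC4 (chr13:95301476-95301701, minus strand) were higher after melatonin in JJ012. ABCA3 (chr16:2340747-2340978, minus strand) was lower in JJ012 and higher in 143B, and ABCB6 (chr2:219218995-219219208, minus strand) was lower in 143B.
ABCE1 promoter: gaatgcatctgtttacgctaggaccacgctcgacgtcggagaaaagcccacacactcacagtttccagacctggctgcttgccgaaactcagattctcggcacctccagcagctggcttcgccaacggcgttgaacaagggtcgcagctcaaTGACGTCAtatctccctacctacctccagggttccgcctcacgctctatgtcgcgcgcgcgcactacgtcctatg
ABCC4 promoter: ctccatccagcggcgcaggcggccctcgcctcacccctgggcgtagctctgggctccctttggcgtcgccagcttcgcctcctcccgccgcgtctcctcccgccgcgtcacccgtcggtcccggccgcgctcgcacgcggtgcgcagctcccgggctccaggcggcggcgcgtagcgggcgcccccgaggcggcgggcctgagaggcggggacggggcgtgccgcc
ABCA3 promoter: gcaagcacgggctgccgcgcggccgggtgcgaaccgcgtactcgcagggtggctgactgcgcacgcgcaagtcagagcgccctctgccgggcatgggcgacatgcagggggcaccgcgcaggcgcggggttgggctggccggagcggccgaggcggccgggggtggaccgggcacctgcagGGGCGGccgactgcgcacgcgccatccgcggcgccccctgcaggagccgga
ABCB6 promoter: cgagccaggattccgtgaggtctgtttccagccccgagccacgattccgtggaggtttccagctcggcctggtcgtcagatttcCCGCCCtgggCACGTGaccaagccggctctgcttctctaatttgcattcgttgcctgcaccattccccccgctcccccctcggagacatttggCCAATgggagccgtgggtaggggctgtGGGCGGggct

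The ABCE1 window held 1 cAMP response element, ABCA3 held 1 GC box, and ABCB6 held 2 GC boxes, 1 CCAAT box and 1 E-box. ABCC4 held none of the 5 motifs. Among the 35116 promoters in the table, the same window held a GC box in 42.6%, a CCAAT box in 32.0%, an E-box in 6.34%, a TATA box in 10.7% and a cAMP response element in 1.65%. The table held 53 promoters of 35 members, and of these 53 a GC box was in 25, a CCAAT box in 11, an E-box in 9, a TATA box in 6 and a cAMP response element in 1. A match is a string of letters and not a measured binding site.

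Library totals lay between 15889564 and 19218343 counts. Of the 7 cartilage markers, COL2A1, ACAN, COL9A1 and HAPLN1 were at or below 0.11 FPKM in every library. COL11A2 was at 1.67 and 0.61 FPKM in the control and melatonin libraries of JJ012 and at 0.52 and 0.55 FPKM in those of 143B. MATN3 lay between 0.30 and 0.91 FPKM. The chondrocyte factor SOX9 was at 15.1 and 6.16 FPKM in JJ012 and at 15.5 and 12.1 FPKM in 143B. Of the 7 osteoblast markers, SPP1 was at 79.4 and 64.5 FPKM and COL1A1 at 10.9 and 0.77 FPKM in JJ012, with both below 1 FPKM in 143B. RUNX2 lay between 2.59 and 4.28 FPKM and BGLAP between 0.26 and 1.44 FPKM, while SP7, IBSP and ALPL stayed at or below 0.36 FPKM in every library. The 3 blood markers summed to 13.2 and 5.45 FPKM in the control and melatonin libraries of JJ012 and to 0.83 and 1.20 FPKM in those of 143B. They consisted mostly of CD3E in JJ012, at 9.73 and 3.28 FPKM, with PTPRC at or below 0.14 FPKM. Mesenchymal VIM fell from 611 to 224 FPKM in JJ012, COL1A2 from 12.5 to 0.14 FPKM and FN1 from 800 to 458 FPKM. VIM was at 1676 and 1517 FPKM and FN1 at 69.5 and 34.8 FPKM in 143B, and COL1A2 at or below 0.01 FPKM. The epithelial marker KRT19 fell from 2.16 to 0.03 FPKM in JJ012 and was at or below 0.05 FPKM in 143B. EPCAM was at 0.15 and 0.05 FPKM in JJ012 and at 1.40 and 0.79 FPKM in 143B, and CDH1 at or below 0.01 FPKM. Endothelial PECAM1 was at 1.81 and 0.66 FPKM in JJ012 and at 2.40 and 2.04 FPKM in 143B, and CDH5 at or below 0.13 FPKM. The part of these shifts in the differences between members was not tested, and in bulk RNA fewer cells of a kind and less RNA per cell cannot be told apart.

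FPKM, the counts divided by exonic length and library total, allow levels to be compared between genes. At least 1 FPKM was reached by 26 of the 46 members in at least 1 library and by 18 members in all 4. Members took between 0.107% and 0.117% of the counts of a library. Their summed level was 152 FPKM in the JJ012 control, 167 FPKM in melatonin-treated JJ012, 134 FPKM in the 143B control and 137 FPKM in melatonin-treated 143B. ABCF1 ranked first in both JJ012 libraries and ABCE1 first in both 143B libraries, so the most abundant members in all 4 libraries were ribosome-associated proteins and not transporters. In the JJ012 control ABCF1 stood 2.01 times (95% counting interval 1.88 to 2.13) above the next member, ABCA3. In the 143B control ABCE1 stood 1.27 times (1.20 to 1.34) above ABCA1. Further down the order, ABCE1 and ABCD3 in the JJ012 control, and ABCA2 and ABCD4 in the 143B control, could not be ordered beyond counting error. Counting intervals here and below are exact (Clopper-Pearson) and cover counting error only.

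**Figure D1:**
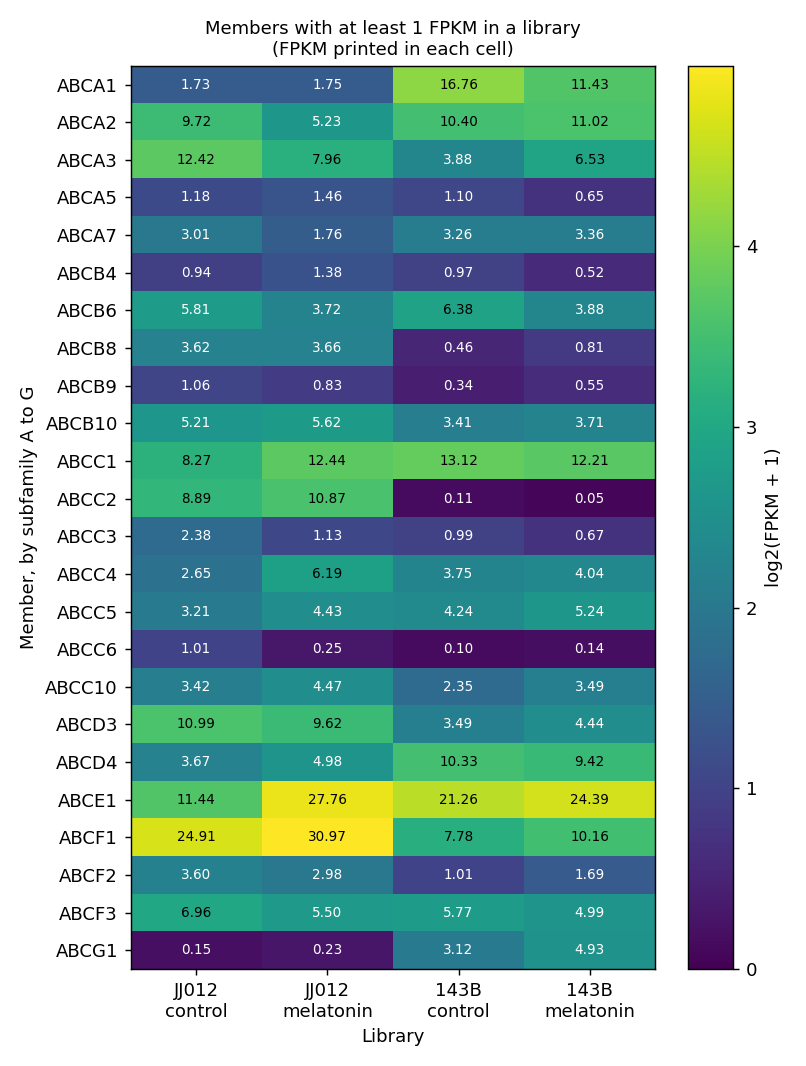
FPKM of 24 of the 26 members with at least 1 FPKM in a library, with members as rows and the 4 libraries as columns, coloured by log2(FPKM + 1). ABCF1 at 30.97 FPKM and ABCE1 at 27.76 FPKM in melatonin-treated JJ012 are the highest values, and ABCC2 and ABCG1 are each much higher in both libraries of 1 line.

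**Figure D2:**
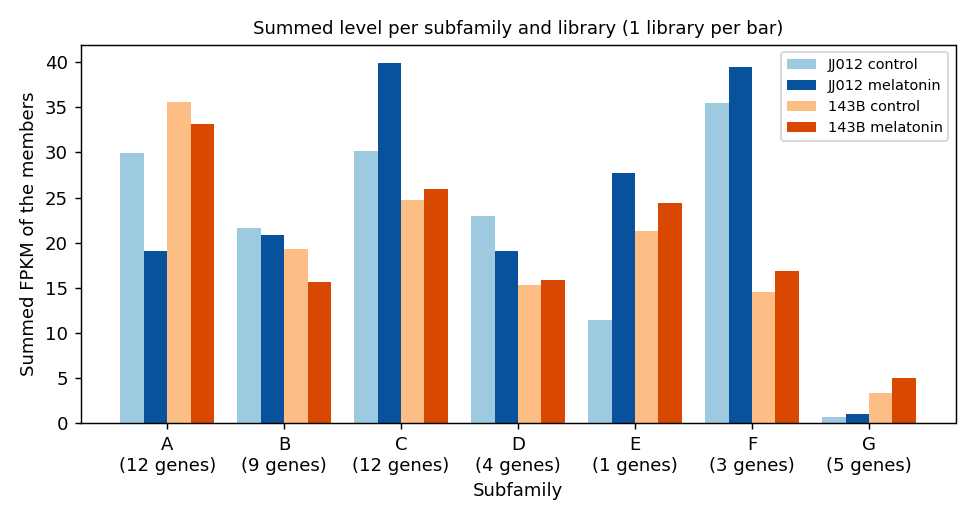
Summed FPKM of the members of each subfamily, with 1 bar per library and no error bars because there was 1 library per condition. Subfamily E, which is ABCE1 alone, goes from 11.4 to 27.8 FPKM in JJ012, and subfamily F stands higher in both JJ012 libraries than in both 143B libraries.

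The first question was which members differed after melatonin. In JJ012, ABCE1 and ABCC4 were higher, and ABCA2, ABCA3, ABCC3 and ABCC6 were among those lower. In 143B, ABCA3 was higher and ABCB6 was lower. A member was called where its log2 fold change on the FPKM + 1 scale reached 0.58 in either direction, among genes with at least 1 FPKM in 1 of the libraries compared. This gave 7 of 25 tested members in JJ012 (28%), where 38.2% of all 15794 tested genes were called (19.6% higher and 18.6% lower, and 33.9% of the protein-coding ones). It gave 2 of 20 tested members in 143B (10%), where 12.7% of all 14135 tested genes were called (6.09% higher and 6.65% lower, and 6.09% of the protein-coding ones). Neither share exceeded that of all tested genes, though the 143B share lay above the 6.09% of the protein-coding ones. A second rule asked for at least 1.5-fold in CPM and an interval without 1. It called 10 of 25 members in JJ012, beside 42.9% of all tested genes. In 143B it called 5 of 20, a larger share than the 14.2% of all tested genes. The median log2 fold change of tested members was 0.01 in JJ012, beside 0.008 for all tested genes, and 0.09 in 143B, beside 0.03 for all tested genes. The intervals of the CPM ratio (counts scaled to the library total) excluded 1 for 21 of the 25 members in JJ012 and 16 of the 20 in 143B, which covers counting noise and not the variation between cultures. With TPM in place of FPKM, the median of all genes in JJ012 was 0.21. The JJ012 calls were then 10 higher and 4 lower of 32 tested, in place of 2 and 5, beside 52.8% of all tested genes. With TMM they were 3 higher and 3 lower of 23, beside 37.6%. In 143B, TPM gave 3 higher and 4 lower of 25, beside 28.6%, and CPM 7 higher and 3 lower of 27, beside 13.9%.

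A melatonin difference common to both lines was also tested, with edgeR's quasi-likelihood test on the counts of all 4 libraries and the cell line as a block, an analysis chosen after seeing the data. Of 26 tested members, 0 passed a Benjamini-Hochberg adjusted p of 0.05, beside 0.454% of all 18071 tested genes, and 0 had an unadjusted p under 0.05. The smallest adjusted p among the members was 0.89, for ABCC3, by the same edgeR test. The fit leaves 1 residual degree of freedom. Its spread comes from the differences between the responses of the lines and not from those between cultures. This spread was shared across genes (common dispersion 0.09), so the test does not measure how far the responses of a single member differed.

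**Figure D3:**
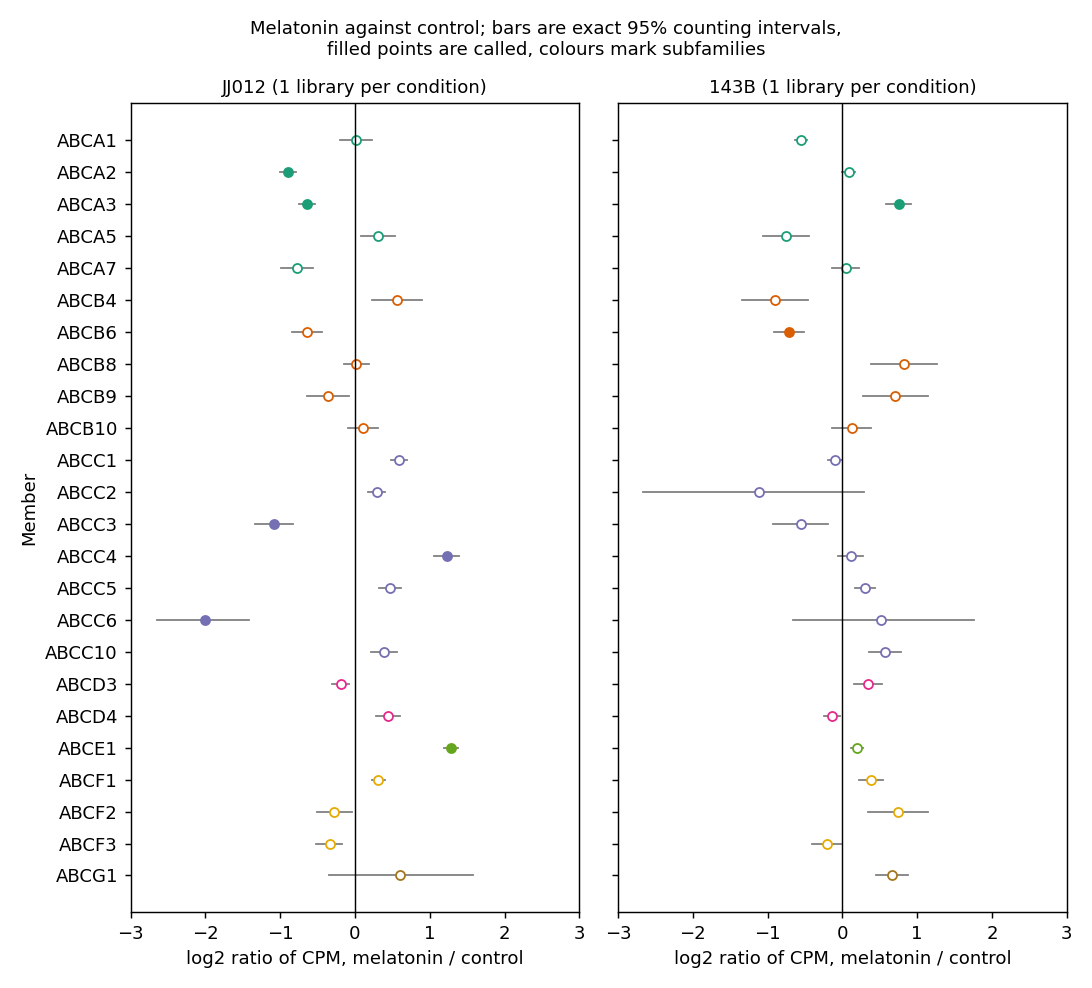
Log2 ratio of CPM between melatonin and control for 24 of the 26 members with at least 1 FPKM in a library in JJ012 (left) and 143B (right), with exact 95% counting intervals as bars and filled points for called members. ABCE1 and ABCC4 lie farthest to the right in JJ012 and ABCC6 farthest to the left, while in 143B only ABCA3 and ABCB6 are filled.

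The second question was how the untreated lines differed. The 10 members higher in JJ012 included ABCA3, ABCB8, ABCB9, ABCC2, ABCC3, ABCC6, ABCD3, ABCF1 and ABCF2, and the 6 lower ones included ABCA1, ABCC1, ABCD4, ABCE1 and ABCG1. These 16 of 25 tested members (64%) stand beside 68.7% of all 16929 tested genes (41.3% higher and 27.4% lower) and 64.6% of the protein-coding ones. The 1.5-fold rule gave 17 of 25 members, beside 70.7% of all tested genes. The median difference of tested members was 0.23 on the log2 scale, beside 0.29 for all tested genes. Relative to the median gene the calls were 8 higher and 8 lower of 25, beside 67.0% of all tested genes. They were 7 and 8 of 24 with TMM and 8 and 7 of 24 with DESeq2 size factors, beside 67.9% and 67.8%. With CPM they were 21 and 6 of 37, beside 72.5%. Of the 16, 8 overlap another gene that reached 1 FPKM in a library, among them ABCA1, ABCA3, ABCB8, ABCB9, ABCD4 and ABCE1. So do 3 of the 7 members called in JJ012 and 1 of the 2 called in 143B. Overlaps were taken from whole gene spans, introns included, and overlap of exons was not checked. Overlaps with genes below 1 FPKM, such as those of ABCB6 and ABCF2 on the same strand, were left out. How reads in such overlaps were counted is not given in the sources used here. The lines differ in donor, tumour and culture history, which cannot be told apart, and this comparison uses the same control libraries as the melatonin comparisons.

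**Figure D4:**
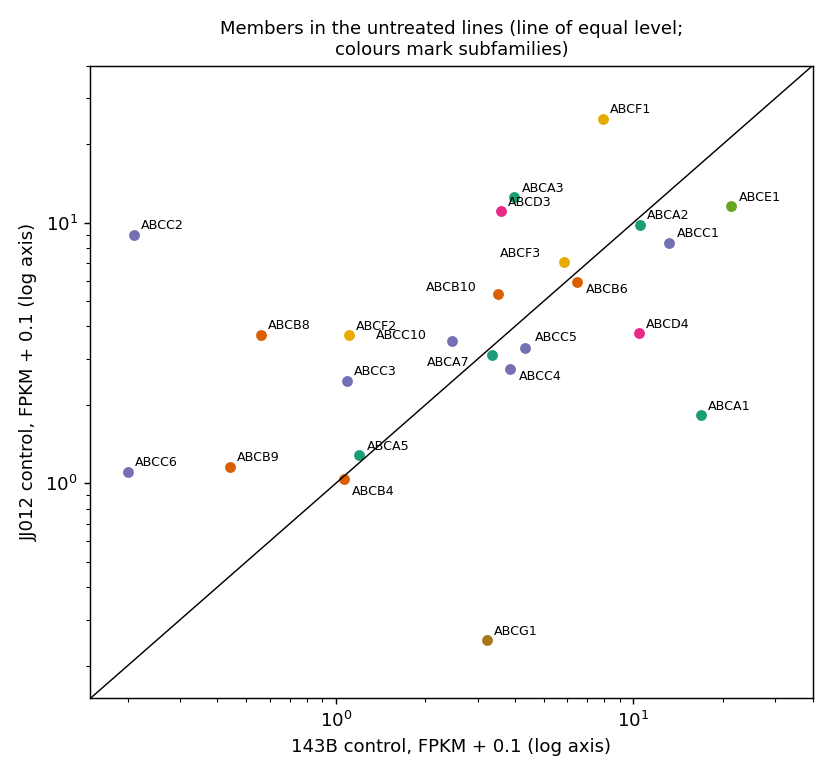
FPKM + 0.1 of 24 of the 26 members with at least 1 FPKM in a library, in the JJ012 control (vertical log axis) and the 143B control (horizontal log axis), with the line of equal level. ABCC2 lies farthest above the line, at 8.89 against 0.11 FPKM, and ABCG1 farthest below it, at 0.15 against 3.12 FPKM.

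Among the members without membrane domains, ABCE1 had the highest log2 fold change of the 25 tested members in JJ012, on the FPKM + 1 scale. ABCE1 (chr4:145098288-145129524, plus strand) splits ribosomes after termination so that they can be used again. It was at 11.4 and 27.8 FPKM in the control and melatonin libraries of JJ012 and at 21.3 and 24.4 FPKM in those of 143B. The JJ012 control was the low library, and the other 3 lay between 21.3 and 27.8 FPKM. ABCE1 was 2.43-fold higher after melatonin in JJ012 (2.27 to 2.59, log2 fold change 1.21) and 1.15-fold higher in 143B (1.08 to 1.21, log2 fold change 0.19), and only the first was called. The gene span, introns included, overlaps that of OTUD4 over 18687 bases on the opposite strand. OTUD4 was at 6.54 and 13.1 FPKM in JJ012 and at 18.3 and 17.1 FPKM in 143B. The strand setting of the counting is not given in the sources used here, so reads of the 2 genes may not have been told apart. ABCF1, which binds the initiation factor eIF2, was at 24.9 and 31.0 FPKM in JJ012 and at 7.78 and 10.2 FPKM in 143B. It was 3.20-fold higher in the JJ012 control than in the 143B control (2.91 to 3.52), and its ratio after melatonin was 1.24 (1.17 to 1.32) in JJ012 and 1.31 (1.17 to 1.46) in 143B, below the threshold in both. ABCF2 was at 3.60 and 2.98 FPKM in JJ012 and at 1.01 and 1.69 FPKM in 143B, and was 3.56-fold higher in the JJ012 control (2.79 to 4.57). It overlaps ABCF2-H2BK1 on the same strand over 15683 bases. That gene was at 0.5 and 0.34 FPKM in JJ012 and at 0 and 0.08 FPKM in 143B. How shared reads were counted is not given in the sources used here. ABCF3 stayed between 4.99 and 6.96 FPKM in all 4 libraries and was called in no comparison.

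The ABCC subfamily, the conjugate and drug exporters, summed to 30.1 and 39.9 FPKM in JJ012 and to 24.7 and 25.9 FPKM in 143B, but its members moved in opposite directions. ABCC4 (MRP4, chr13:95019835-95301475, minus strand) exports cyclic nucleotides, prostaglandins and nucleoside drugs. It was at 2.65 and 6.19 FPKM in the control and melatonin libraries of JJ012 and at 3.75 and 4.04 FPKM in those of 143B. Its ratio was 2.34 (2.08 to 2.63) in JJ012 and 1.08 (0.957 to 1.22) in 143B, and the responses differed by 1.12 on the log2 scale (0.875 to 1.36). ABCC3 (MRP3), a basolateral exporter of glucuronides, was at 2.38 and 1.13 FPKM in JJ012 and at 0.99 and 0.67 FPKM in 143B. It was 2.11-fold lower after melatonin in JJ012 (1.77 to 2.53) and 1.47-fold lower in 143B (1.14 to 1.895), the second under 1 FPKM in both libraries and not tested. ABCC6, whose loss causes the calcifying disorder pseudoxanthoma elasticum, was at 1.01 and 0.25 FPKM in JJ012 and at 0.10 and 0.14 FPKM in 143B. This was 134 and 28 counts in JJ012, 4.02-fold lower after melatonin (2.66 to 6.28). ABCC6 has near-identical copies, ABCC6P1 and ABCC6P2, which went from 0.92 to 0.13 FPKM and from 1.40 to 0.17 FPKM in JJ012, so how its reads were divided is uncertain. Counts summed over the 3 genes went from 224 to 38 in JJ012, 4.95-fold lower (3.50 to 7.18).

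ABCC1 and ABCC2 were the most abundant members of this subfamily in JJ012. ABCC1 (MRP1, chr16:15949138-16143257, plus strand), the exporter of glutathione conjugates, was at 8.27 and 12.4 FPKM in JJ012 and at 13.1 and 12.2 FPKM in 143B. Its ratio after melatonin in JJ012 was 1.503 (1.40 to 1.61), a log2 fold change of 0.54 just under the threshold. It was called with a pseudocount of 0.1 (0.58), with TMM (0.60), with CPM (0.58) and with TPM (0.84), while less the running median over length it was 0.28. It was 1.59-fold lower in the JJ012 control than in the 143B control (1.48 to 1.70). ABCC6 lies 6307 bases from ABCC1 on the other strand, and the neighbours moved in opposite directions in JJ012. ABCC2 (MRP2, chr10:99782640-99852594, plus strand), known from the bile canaliculus, was at 8.89 and 10.9 FPKM in JJ012 and at 0.11 and 0.05 FPKM in 143B. It had 1339 and 1375 counts in JJ012 against 14 and 7 in 143B and was 79.1-fold higher in the JJ012 control (47.0 to 145). No other tested member differed as much between the lines.

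The ABCA subfamily summed to 29.9 FPKM in the control and 19.1 FPKM in the melatonin library of JJ012 and to 35.6 and 33.15 FPKM in those of 143B. Of its 5 tested members in JJ012, ABCA2 and ABCA3 were called lower. ABCA5 and ABCA7 were named after their values were seen. ABCA5 had a ratio of 1.24 (1.05 to 1.46). ABCA7 was 1.71-fold lower (1.47 to 1.98), with a log2 fold change of -0.54 just under the threshold. ABCA2 (chr9:137007234-137028915, minus strand), a lipid transporter of late endosomes and lysosomes, was at 9.72 and 5.23 FPKM in JJ012 and at 10.4 and 11.0 FPKM in 143B. Melatonin-treated JJ012 was the low library, and the other 3 lay between 9.72 and 11.0 FPKM. ABCA2 was 1.86-fold lower in JJ012 (1.72 to 2.01), and its ratio in 143B was 1.06 (0.996 to 1.13). ABCA3 (chr16:2275881-2340746, minus strand), which loads phospholipids into the lamellar bodies of lung cells, was at 12.4 and 7.96 FPKM in JJ012 and at 3.88 and 6.53 FPKM in 143B. It was 1.56-fold lower in JJ012 (1.44 to 1.69) and 1.68-fold higher in 143B (1.51 to 1.89), and was the member called in opposite directions in the lines. Its log2 fold change of -0.58 in JJ012 sat on the threshold and was -0.36 with TPM and -0.51 with TMM, where it was not called. A pseudogene on the opposite strand, ABCA17P, overlaps ABCA3 over 1597 bases and was at 1.56 and 0.86 FPKM in JJ012. The distance between the lines in ABCA3 narrowed from 3.20-fold in the controls (2.90 to 3.55), with melatonin-treated JJ012 and 143B at 7.96 and 6.53 FPKM.

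The sterol exporters ABCA1 and ABCG1, which load cholesterol onto apolipoproteins and HDL, were far higher in 143B than in JJ012. ABCA1 (chr9:104781006-104928155, minus strand) was at 1.73 and 1.75 FPKM in JJ012 and at 16.8 and 11.4 FPKM in 143B. ABCG1 (chr21:42199689-42297244, plus strand) was at 0.15 and 0.23 FPKM in JJ012 and at 3.12 and 4.93 FPKM in 143B. In the controls, ABCA1 was 9.69-fold (8.70 to 10.8) and ABCG1 20.4-fold (12.7 to 34.8) lower in JJ012. After melatonin in 143B they went in opposite directions, ABCA1 1.47-fold lower (1.39 to 1.55) and ABCG1 at a ratio of 1.58 (1.37 to 1.83), both under the calling threshold with log2 fold changes of -0.52 and 0.53. ABCA1 was called with TPM (-0.60), and ABCG1 with a pseudocount of 0.1 (0.64), with CPM (0.64) and under the 1.5-fold rule. ABCA1 had the same level in both JJ012 libraries within counting error, with a ratio of 1.01 (0.868 to 1.18).

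The ABCD subfamily summed to 22.9 and 19.1 FPKM in JJ012 and to 15.3 and 15.9 FPKM in 143B. ABCD3 (PMP70), which carries branched and dicarboxylic acyl-CoA into peroxisomes, was at 11.0 and 9.62 FPKM in JJ012 and at 3.49 and 4.44 FPKM in 143B. In the controls ABCD3 was 3.15-fold higher in JJ012 (2.83 to 3.51). ABCD4, which works in lysosomal cobalamin export, had the reverse order, at 3.67 and 4.98 FPKM in JJ012 and at 10.3 and 9.42 FPKM in 143B, and was 2.82-fold lower in the JJ012 control (2.56 to 3.10). It overlaps ENSG00000258559 on the same strand over 5299 bases, which was at 0.99 and 2.27 FPKM in JJ012 and at 6.77 and 6.22 FPKM in 143B. ABCD2, another peroxisomal member, was at 0.32 and 0.25 FPKM in JJ012 and had 0 counts in both 143B libraries.

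The ABCB subfamily held the mitochondrial members, and none of its 6 tested members was called after melatonin in JJ012. ABCB6 (chr2:219209772-219218994, minus strand), a porphyrin transporter, was at 5.81 and 3.72 FPKM in JJ012 and at 6.38 and 3.88 FPKM in 143B. The control libraries lay together above the melatonin libraries in both lines. ABCB6 was 1.64-fold lower after melatonin in 143B (1.43 to 1.89, log2 fold change -0.60) and 1.56-fold lower in JJ012 (1.36 to 1.79, log2 fold change -0.53), and the responses differed by 0.08 on the log2 scale (-0.21 to 0.36). The second value fell short of the threshold, which it passed with a pseudocount of 0.1 (-0.63) and with CPM (-0.62). ABCB6 overlaps ENSG00000284820 on the same strand over 9223 bases. That gene was at 0.22 and 0.25 FPKM in JJ012 and at 0.36 and 0.24 FPKM in 143B. How shared reads were counted is not given in the sources used here. ABCB8, a protein of the inner mitochondrial membrane, was at 3.62 and 3.66 FPKM in JJ012 and at 0.46 and 0.81 FPKM in 143B, 7.89-fold higher in the JJ012 control (6.14 to 10.3). ABCB9, a lysosomal peptide transporter, was at 1.06 and 0.83 FPKM in JJ012 and at 0.34 and 0.55 FPKM in 143B. It was 3.16-fold higher in the JJ012 control (2.42 to 4.16), and this call was lost when values were taken relative to the median gene (log2 difference 0.33), with TMM (0.49) and with DESeq2 size factors (0.51).

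The pumps best known for drug resistance were scarce. ABCB1 (P-glycoprotein) was at 0.33 and 0.59 FPKM in JJ012 and at 0.11 and 0.28 FPKM in 143B, or 41 and 61 counts and 11 and 31 counts. ABCG2 (breast cancer resistance protein) was at 0.07 and 0.03 FPKM in JJ012 and at 0.13 and 0.04 FPKM in 143B, with no more than 12 counts in a library. The ratio of ABCB1 after melatonin was 1.77 (1.17 to 2.70) in JJ012 and 2.61 (1.28 to 5.75) in 143B. For ABCG2 the intervals included 1 in both lines, from 0.085 to 2.23 in JJ012 and from 0.073 to 1.02 in 143B. Both genes were under the filter for calling. The multidrug resistance protein ABCC1 was more abundant than either in every library.

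A further 20 members stayed below 1 FPKM in every library, the highest being ABCG4 at 0.70 FPKM in melatonin-treated JJ012. They were ABCA4, ABCA6, ABCA8, ABCA9, ABCA10, ABCA12, ABCA13, ABCB1, ABCB5, ABCB11, ABCC8, ABCC9, ABCC11, ABCC12, ABCC13, ABCD2, ABCG2, ABCG4, ABCG5 and ABCG8. Many of them are known from retina, liver, skin, muscle or pancreas. Together they had 591 counts in the JJ012 control, 371 in melatonin-treated JJ012, 82 in the 143B control and 105 in melatonin-treated 143B. Of the 20, 18 had a higher CPM in the JJ012 control than in the 143B control, beside 55.7% higher and 29.6% lower of all 20398 genes with counts that stayed below 1 FPKM, and 8 had 0 counts in both 143B libraries. ABCA4, the retinal transporter, had 57 counts in the JJ012 control and 0 in the 143B control. It was 15.7-fold higher when the 0 was replaced by the floor of 3 counts, and the exact interval of the ratio began at 12.4. Summed, they were 1.34-fold lower after melatonin in JJ012 (1.17 to 1.53), 16 members lower and 4 higher, beside 51.4% lower and 33.3% higher of these 20398 genes. The same direction held for the sum of those genes, which was 1.26-fold lower after melatonin in JJ012 and 1.44 times as high in the JJ012 control as in the 143B control.

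Between the lines, 19 members were tested after melatonin in both, of which 8 had the same sign and 11 the opposite sign. Of all 11822 genes tested in both, 50.7% had the same sign and 48.9% the opposite sign. Of the 19, 0 were called in the same direction in both lines, beside 2.50% of all genes tested in both, and ABCA3 was called in opposite directions, beside 2.07%. The difference of the responses, JJ012 minus 143B on the log2 CPM scale, had an interval without 0 for 13 of the 19 (68.4%), beside 69.3% of the 11642 genes with counts in all 4 libraries. It was -1.39 for ABCA3 (-1.59 to -1.20), 1.08 for ABCE1 (0.956 to 1.21) and -0.98 for ABCA2 (-1.12 to -0.84). For ABCF1 the difference was -0.07 (-0.25 to 0.11).

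ABC genes are long, and fold changes in JJ012 varied with length. The exonic length of tested members had a median of 7837 bases, beside 4067.5 bases for all tested genes in JJ012 and 5236.5 bases for the protein-coding ones. Across all tested genes, the running median of the log2 fold change was above 0 for the shortest genes, below 0 at intermediate lengths and mostly above 0 for long genes, and it lay between -0.04 and 0.35 at the lengths of the members. Less this running median, the median of the members was -0.27 in place of 0.01. Of 25 tested members, 2 were called higher and 7 lower, beside 34.5% of all tested genes. The 7 called members stayed called, and ABCA7 (-0.83) and ABCB6 (-0.60) were added, ABCA7 being named after its values were seen. In 143B the running median at the lengths of the members lay between 0.0005 and 0.06. Whether length itself plays a part was not tested.

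**Figure D5:**
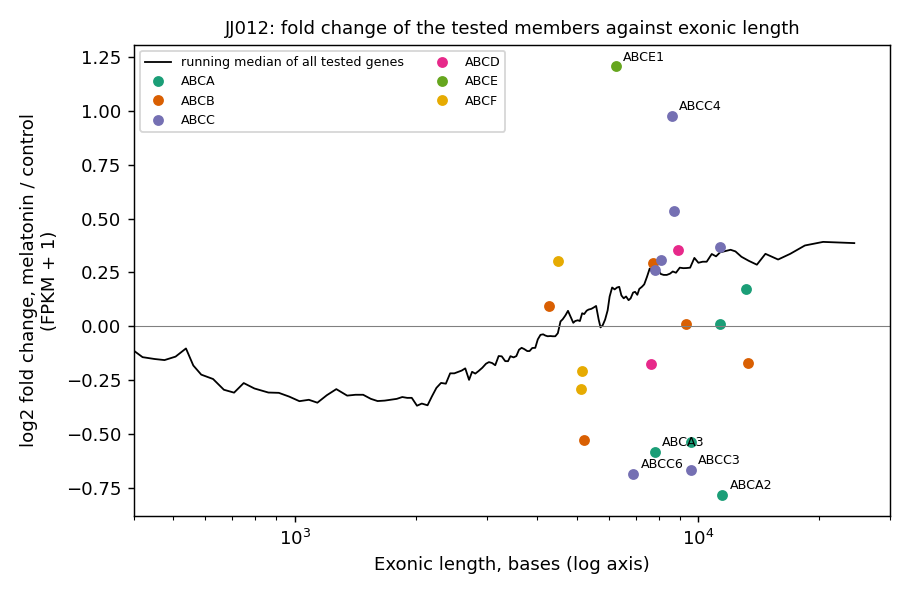
Log2 fold change (FPKM + 1) of 23 of the 25 tested members in JJ012 against exonic length on a log axis, with the running median of all tested genes as a line and called members named. Most members lie at lengths where the line is above 0, and ABCE1 and ABCC4 lie above it while the 4 named members called lower lie below it.

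Partner genes were taken from lists chosen with earlier results of these data known. Of the 13 tested genes of liver X receptor signalling and sterol efflux, the setting of ABCA1 and ABCG1, 3 were higher in JJ012 (NPC1, SCD and LPCAT3) and 5 lower (NR1H3, NPC2, APOE, APOC1 and RXRA). The lysosomal cholesterol exporter NPC1 went from 28.3 to 122 FPKM, 4.30-fold (4.17 to 4.44), and the lipid carrier APOE from 88.8 to 46.3 FPKM, 1.92-fold lower. In 143B, 0 of 13 were higher and APOC1 was lower. Of 9 tested multidrug regulators and detoxification genes in JJ012, HIF1A and GCLM were higher and MVP and GSTP1 lower. In 143B, 0 of 10 were called. Of 9 tested partners of the peroxisomal transporters in JJ012, ACSL1 and SLC27A4 were higher and PEX3 lower, and 0 of 9 were called in 143B. Of 10 translation partners of ABCE1 and the ABCF proteins, EIF2S1 was higher in JJ012, from 25.7 to 39.0 FPKM, and 0 of 10 were called in 143B. The mitochondrial iron-sulfur and haem partners of the ABCB subfamily had 0 called of 9 in JJ012 and 0 of 10 in 143B. KCNJ11, the potassium channel pore that pairs with ABCC8, went from 0.41 to 1.52 FPKM in JJ012, while KCNJ8 stayed below 1 FPKM. Of 7 peptide loading genes, TAPBPL, B2M, PDIA3 and CALR were lower in JJ012, and 0 were called in 143B. These shares stand beside the 38.2% and 12.7% of all tested genes given above.

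Between the untreated lines the same lists had 10 of 14 sterol genes higher in JJ012 (MYLIP, NR1H3, SREBF1, SCARB1, SCD, NPC2, APOE, APOC1, NR1H2 and RXRA) and PLTP and NPC1 lower. Of all tested genes, 41.3% were higher and 27.4% lower. The multidrug list, with 10 tested, had MVP, KEAP1, GSTP1 and HIF1A higher and GCLC, GCLM, AHR and ARNT lower. Of 9 tested peroxisomal partners, PEX3, ACAA1, ELOVL1, SCP2, HSD17B4, PEX19 and SLC27A4 were higher in JJ012, as was ABCD3, and ACSL1 was lower. Among 10 translation partners ETF1, EIF2S3 and EIF5B were higher and GSPT1 and EIF2S2 lower. ISCU, PPOX, SLC25A28, GLRX5, LYRM4 and NFS1 were the higher ones of 9 mitochondrial partners, and TAPBPL, B2M, CALR and TAPBP those of 7 peptide loading genes, with none lower in either list.

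The name rule leaves out 3 genes that encode ABC proteins. TAP1, the peptide transporter of the endoplasmic reticulum, was at 13.2 and 8.79 FPKM in JJ012 and at 9.21 and 8.21 FPKM in 143B, and its partner TAP2 at 1.59 and 2.35 FPKM and at 1.37 and 1.28 FPKM. TAP1 was 1.499-fold lower in JJ012 while the ratio of TAP2 was 1.48, and neither was called. CFTR, the chloride channel, had 1 count in all 4 libraries together.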

How the data were processed

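RNA of JJ012 and 143B cells was measured in 4 libraries, 1 per condition. The table deposited by the authors holds raw counts per gene and FPKM, which are these counts divided by exonic length and library total and rounded to 2 decimals. The processing notes of the submitters list cutadapt 1.9.1, HISAT2 2.2.1, HTSeq 0.6.1, DESeq2 and the build hg38, with no roles, and the strand setting is not given in the sources used here. Columns were matched to samples by cell line, and the suffix T was read as melatonin, which no label spells out. Comparisons used log2 ratios of FPKM + 1, a filter of 1 FPKM and a threshold of 0.58. A floor of 3 counts was worth 0.156 to 0.189 CPM, and ratios of CPM carry exact 95% intervals.

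Named genes were members called in any comparison, the 2 most abundant of each subfamily, subfamilies D to F, and the main sterol and drug pumps. Counts and sums cover all 46 members, and 2 members are not reported here singly or drawn in the figures of single members. The members and lists were chosen with earlier results of these data known. Scripts were tested on simulated data. Alternatives covered pseudocounts, filters, centring, TPM, CPM, TMM (edgeR 4.0.16), DESeq2 1.42.0 size factors, a running median over 501 genes, a threshold of 1 and a 1.5-fold rule, and an edgeR quasi-likelihood fit (TMM, at least 1 FPKM in a library) took the cell line as a block. Promoters came from RefSeq (35 of 46 members) and gene types from GENCODE 29. Python 3.11.15, numpy 2.4.6, scipy 1.17.1, pandas 2.3.3, matplotlib 3.10.9 and R 4.3.3 were used.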

Additional observations from a re-analysis of the deposited data

Results flagged for a closer look

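ABCA3 went in opposite directions after melatonin in the lines. Its response in JJ012 minus that in 143B was -1.39 on the log2 CPM scale (-1.59 to -1.20), with 12.4 and 7.96 FPKM in the control and melatonin libraries of JJ012 and 3.88 and 6.53 FPKM in those of 143B. With 1 library per condition this difference was not tested, and the interval holds counting error only.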

How the results depend on the processing

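With the cell line as replicate block, a pairing of control and melatonin within each line chosen after seeing the data, edgeR called 0 of 26 members. With 1 library per condition no replicate could be left out. In JJ012 the 7 calls became 14 of 32 with TPM and 18 of 38 with CPM, beside 52.8% and 42.7% of all tested genes. They became 10 of 25 with a pseudocount of 0.1, beside 48.6%, and 1 of 25 at a threshold of 1, beside 14.7%. Without members that overlap another gene with at least 1 FPKM, an alternative chosen after seeing the data, they were 4 of 14, beside 38.2%. The median of members in JJ012 (0.01) became 0.26 with TPM, -0.27 less the running median over length and -0.19 without overlapping members. In 143B the 2 calls became 5 of 20 with a pseudocount of 0.1, beside 20.9% of all tested genes. They became 7 of 25 with TPM, beside 28.6%, and 10 of 27 with CPM, beside 13.9%. At a threshold of 1 they were 0 of 20, beside 4.45%, and without overlapping members 1 of 11, beside 12.7%. Under the 1.5-fold rule they were 5 of 20, beside 14.2%, and the median (0.09) became -0.10 with a filter of 5 FPKM. Between the lines the 16 calls became 10 of 14 with a filter of 5 FPKM, beside 69.5% of all tested genes. They became 27 of 37 with CPM, beside 72.5%, and 10 of 25 at a threshold of 1, beside 47.2%. Without overlapping members they were 8 of 14, beside 68.7%. That median (0.23) became -0.052 when centred on the median gene, -0.16 with TMM, -0.13 with DESeq2 size factors and 0.89 with CPM. CPM and TPM also let members through that stayed below 1 FPKM, with 38 and 32 tested in JJ012 in place of 25, and a threshold of 1 is stricter by construction. For the other shifts the cause was not tested. No called member changed sign under any alternative. Of the called members, 6 of 7 in JJ012 kept their call under every alternative of scaling, pseudocount and length, all but ABCA3, as did 2 of 2 in 143B and 13 of 16 between the lines, all but ABCB9, ABCC1 and ABCC3. Of the named members without a call, ABCB6, ABCC1, ABCD4 and ABCF1 in JJ012, ABCA1, ABCF2 and ABCG1 in 143B and ABCC4 between the lines were called under at least 1 of these alternatives.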
